A study of Mus musculus with 24 samples.

Results

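The Ms4a genes described here were Ms4a7, Ms4a4a, Ms4a4c, Ms4a6b, Ms4a6c, Ms4a6d and Ms4a8a, 7 members of the membrane-spanning 4A family chosen by name for macrophages, out of 45706 genes in the count table and 19 annotated Ms4a genes. RNA was sequenced from 24 libraries of female C57BL/6J mice, labelled as 8 to 12 weeks of age, with 3 libraries in each of 8 groups. The sorted ("ex vivo") groups were microglia (MG, brain), Kupffer cells (KCs, liver), peritoneal macrophages (PMs) and alveolar macrophages (AMs, lung), sorted by FACS on CD45 and CD11b, with F4/80 and TIM-4 added for KCs, F4/80 and CD115 for PMs, and SiglecF for AMs. The cultured ("in vitro") groups were the corresponding TRM-like cells (TRM-LCs; TRM, tissue-resident macrophage), MG-LCs, KC-LCs, PM-LCs and AM-LCs, grown for 14 days in polyethylenimine-coated flasks without a sort. KC-LCs and PM-LCs received M-CSF and MG-LCs received M-CSF with IL-34, each at 3% oxygen with glucose. AM-LCs received GM-CSF at atmospheric oxygen without glucose, so that organ, growth factor, oxygen and glucose cannot be told apart in any comparison with AM-LCs. A flask held the cells of 3 brains, 1 liver, 3 lungs or the lavages of 3 mice. No transgene, mutant allele or further agent was described for these libraries.

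Ms4a proteins are small tetraspan proteins of the plasma and endosomal membrane, some of which act as partners of immune receptors. The best known relatives are Ms4a1, which encodes the B cell antigen CD20, and Ms4a2, the beta chain of the high-affinity IgE receptor. In macrophages, Ms4a4a is known to associate with the beta-glucan receptor Dectin-1 (Clec7a), and Ms4a7 is used in the brain as a marker of border-associated and of infiltrating macrophages as opposed to parenchymal MG. Ms4a8a has been described in alternatively activated macrophages, and Ms4a6b in T cells.

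In the GENCODE annotation of GRCm38 (mm10), the 19 Ms4a genes lay in 1 cluster of 679 kb on chromosome 19. Ms4a8a (ENSMUSG00000024730, chr19:11067471-11081102) and Ms4a7 (ENSMUSG00000024672, chr19:11321039-11336146) lay on the minus strand. Ms4a4a (ENSMUSG00000101389, chr19:11375523-11392790), Ms4a4c (ENSMUSG00000024675, chr19:11404770-11427246), Ms4a6c (ENSMUSG00000079419, chr19:11469366-11482192) and Ms4a6b (ENSMUSG00000024677, chr19:11516512-11531256) followed on the plus strand. Ms4a6d (ENSMUSG00000024679, chr19:11586604-11604849) was again on the minus strand. Of the exons of Ms4a6c, 1088 of 2050 bases overlapped exons of the antisense gene BE692007, and 51.4% of the read-length words in its transcripts also occurred in other genes. The libraries do not mark strand, so reads of this stretch cannot be assigned to either gene. Levels are given in CPM, the counts scaled to a common library size. BE692007 itself averaged from 0.252 CPM in AM-LCs to 26.1 CPM in KCs, against 5.68 to 129 CPM for Ms4a6c. Words shared with other genes made up 8.19% of Ms4a4c (with Ms4a4b and Ms4a4d), 3.57% of Ms4a6b, 2.54% of Ms4a6d, 0.306% of Ms4a7 and 0% of Ms4a4a and Ms4a8a.

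The promoters below are shown because their genes carried the contrasts described below, Ms4a7 and Ms4a8a for the opposite courses in culture and Ms4a6b and Ms4a6c as neighbouring relatives with unlike tissue patterns. Each is the RefSeq stretch of GRCm38.p6 from 250 bases before to 50 bases after the start of a transcript, read on the strand of the gene. The first 2 are Ms4a7 (chr19:11336097-11336396, the first of its 2 listed starts) and Ms4a8a (chr19:11081054-11081353), in which capitals mark motif matches.
Ms4a7: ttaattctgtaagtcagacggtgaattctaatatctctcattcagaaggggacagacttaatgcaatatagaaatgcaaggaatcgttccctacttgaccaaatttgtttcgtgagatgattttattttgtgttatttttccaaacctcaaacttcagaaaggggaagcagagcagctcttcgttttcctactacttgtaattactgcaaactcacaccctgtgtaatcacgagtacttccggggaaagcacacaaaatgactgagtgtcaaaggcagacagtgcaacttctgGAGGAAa
Ms4a8a: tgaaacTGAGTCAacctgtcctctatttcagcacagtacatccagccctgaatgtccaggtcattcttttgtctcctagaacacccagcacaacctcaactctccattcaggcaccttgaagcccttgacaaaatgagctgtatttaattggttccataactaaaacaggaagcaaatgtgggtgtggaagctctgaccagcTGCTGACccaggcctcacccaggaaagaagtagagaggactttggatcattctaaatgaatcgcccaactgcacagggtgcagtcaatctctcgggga
The motifs searched on both strands were GAGGAA (ETS core of PU.1), TTGCNNAA (C/EBP), the ISRE core, TGCTGAC (MAF) and TGANTCA (AP-1), which occurred in 28.3%, 10.8%, 3.43%, 4.67% and 7.81% of all 32817 listed promoters. The Ms4a7 window held GAGGAA at 43, counted from its start as 0. The window of the second listed Ms4a7 start, which is not shown, held TGANTCA at -81. The Ms4a8a window held TGANTCA at -244 and TGCTGAC at -48. The other pair is Ms4a6b (chr19:11518309-11518608) and Ms4a6c (chr19:11469118-11469417), in which capitals mark the stretch that aligned between them.
Ms4a6b: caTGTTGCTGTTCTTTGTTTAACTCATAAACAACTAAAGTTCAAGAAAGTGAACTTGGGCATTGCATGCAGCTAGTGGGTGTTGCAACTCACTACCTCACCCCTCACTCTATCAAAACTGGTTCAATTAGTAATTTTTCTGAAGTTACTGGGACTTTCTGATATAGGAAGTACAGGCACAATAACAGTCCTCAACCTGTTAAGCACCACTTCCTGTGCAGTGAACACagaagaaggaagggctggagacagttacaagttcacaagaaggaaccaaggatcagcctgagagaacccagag
Ms4a6c: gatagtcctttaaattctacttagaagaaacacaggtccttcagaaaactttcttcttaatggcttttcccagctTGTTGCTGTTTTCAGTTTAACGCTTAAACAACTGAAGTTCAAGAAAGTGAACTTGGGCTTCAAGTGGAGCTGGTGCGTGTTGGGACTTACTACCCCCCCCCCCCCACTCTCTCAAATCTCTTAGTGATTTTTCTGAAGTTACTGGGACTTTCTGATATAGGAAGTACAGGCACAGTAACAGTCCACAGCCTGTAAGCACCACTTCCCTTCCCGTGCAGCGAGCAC
The aligned stretch ran from -248 to -24 in Ms4a6b and from -175 to 49 in Ms4a6c, with 193 identical bases, 23 mismatched bases and 18 bases in gaps, and neither window held a searched motif. These letters are a description of the windows and say nothing of which factors bound there. Ms4a4a and Ms4a4c were also listed, and Ms4a6d was not.

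The libraries held 29569486 to 47105111 counted reads, so that 3 reads, taken as the detection floor (the upper 95% limit of a count of 0, for counting error only), corresponded to 0.0661 to 0.115 CPM. All 8 markers fixed for each population averaged at least 1 CPM in the sorted population they belong to. Transcripts of other cells were present: sorted KCs held 381 to 545 summed CPM of 8 B cell genes, and single TRM-LC libraries held fibroblast and mesothelium genes (8 genes summed: 30934, 7.39 and 1012 CPM in the 3 MG-LC libraries, 22.9, 2208 and 365 CPM in PM-LCs, and 17.0, 181 and 1667 CPM in AM-LCs). MG-LC replicate 1 therefore stood apart, and the differences of the members between MG and MG-LCs are given with and without it. In such bulk libraries, fewer cells of a type and less RNA per cell cannot be told apart. Nothing in the labels says that libraries of a group came from separate animals, so p-values measure the spread between these libraries. An exact permutation test of 3 against 3 libraries cannot go below 0.1, and adjusted p-values are therefore from edgeR's quasi-likelihood test over all genes. A gene was called at an adjusted p below 0.05 with a log2 fold change beyond 1.5 in size, where fold changes are ex vivo minus in vitro unless stated.

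Ms4a7 was nearly undetected or low in sorted cells and abundant in cultured ones. Sorted MG held 0.242, 0.216 and 0 CPM, which is 19 reads over the 3 libraries, and MG-LCs held 592, 639 and 807 CPM. Sorted PMs held 1.67, 1.34 and 1.95 CPM and PM-LCs 1127, 601 and 446 CPM. In both populations the 3 cultured libraries lay far above the 3 sorted ones. Sorted KCs held 41.9, 61.1 and 40.4 CPM, against 705, 1457 and 1423 CPM in KC-LCs. Sorted AMs held 21.2, 11.1 and 8.50 CPM, against 246, 100.5 and 69.8 CPM in AM-LCs. These groups did not overlap either. The log2 fold changes were -12.13 ± 1.06, adjusted p = 0.00103 for MG (± standard error), -8.76 ± 0.48, adjusted p = 4.91e-05 for PMs, -4.61 ± 0.41, adjusted p = 0.000477 for KCs and -3.34 ± 0.55, adjusted p = 0.00260 for AMs, so that Ms4a7 was called higher in vitro in 4 of 4 populations. Without MG-LC replicate 1 the MG value was -12.23, adjusted p = 0.000174. Over all alternative settings and left-out libraries the MG value ran from -12.95 to -11.56.

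The size of this culture difference was not the same in the 4 populations. Each population's difference was tested against the mean difference of the other 3, and Ms4a7 passed in PMs (-2.08 ± 0.65, adjusted p = 0.0379), AMs (5.15 ± 0.67, adjusted p = 2.60e-05), MG (-6.498 ± 0.76, adjusted p = 4.26e-06) and KCs (3.43 ± 0.64, adjusted p = 0.00126). A negative value means a larger rise in culture than elsewhere. The PM result was lost without any 1 of 10 libraries, which were sorted PM replicates 1, 2 and 3, PM-LC replicate 1, sorted MG replicates 1 and 2, sorted KC replicate 2, KC-LC replicate 1, sorted AM replicate 1 and AM-LC replicate 2, with adjusted p-values from 0.0511 to 0.144. It was also lost with limma-voom (-1.75, adjusted p = 0.319) and with the replicate block (adjusted p = 0.0525). Mean levels of sorted populations spanned 313-fold, from 0.153 ± 0.133 CPM in MG (SD, n = 3) to 47.8 ± 11.5 CPM in KCs. Mean levels of the cultures spanned 8.60-fold, from 139 ± 94.4 CPM in AM-LCs to 1195 ± 425 CPM in KC-LCs. In sorted cells Ms4a7 was called in 6 of 6 pairs of populations, in the order KCs, AMs, PMs and MG without overlap. The smallest of these differences, KCs over AMs (1.82 ± 0.501, adjusted p = 0.0123), was lost without sorted AM replicate 2 (adjusted p = 0.0569) or 3 (adjusted p = 0.0601).

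**Figure D1:**
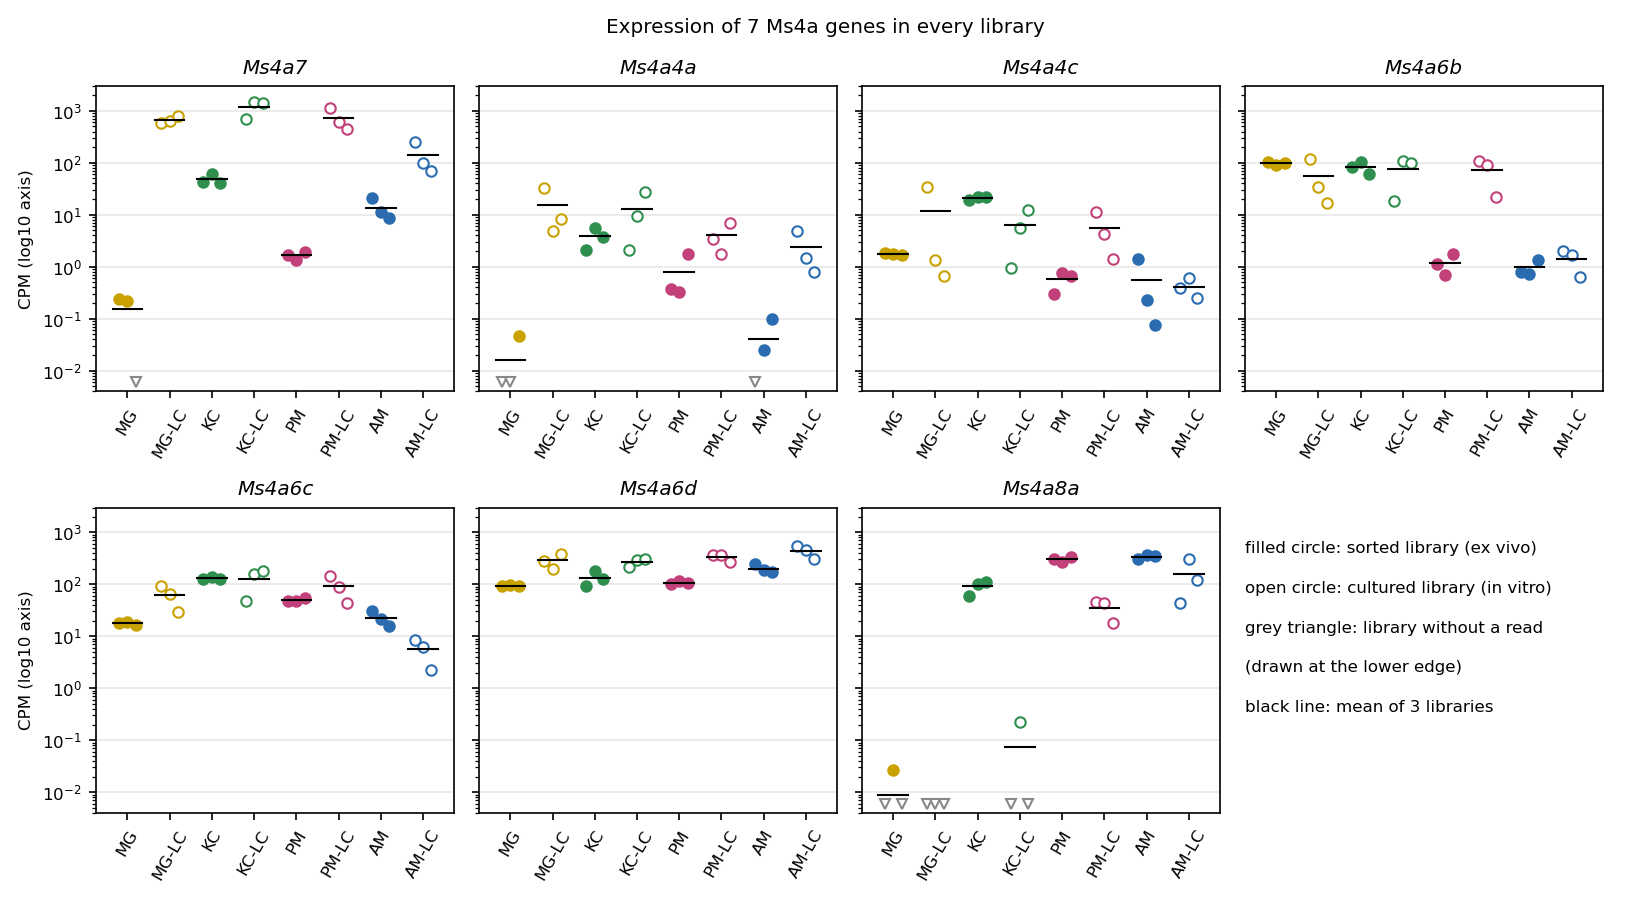
Level of each Ms4a gene in CPM (log10 axis) in every library of the 8 groups on the horizontal axis. Filled circles are sorted and open circles cultured libraries, black lines are means of 3 libraries, and grey triangles at the lower edge are libraries without a read. Ms4a7 was higher in all 4 cultures (0.153 against 679 CPM on average in MG and MG-LCs), and Ms4a8a was high in sorted PMs and AMs.

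Ms4a4a, the partner of Dectin-1, was a gene of low level that was called higher in vitro in MG and AMs. Sorted MG held 0, 0 and 0.0477 CPM (2 reads in all), and MG-LCs 33.4, 4.83 and 8.28 CPM. Sorted AMs held 0, 0.0256 and 0.0995 CPM (5 reads in all), and AM-LCs 4.90, 1.45 and 0.789 CPM. Neither pair of groups overlapped. The log2 fold change was -9.71 ± 1.399, adjusted p = 0.00385 for MG (-8.46, adjusted p = 0.00170 without MG-LC replicate 1) and -5.65 ± 1.15, adjusted p = 0.00604 for AMs, and the ratio of pooled reads in MG was 973 with a counting interval of 269 to 8041. Sorted KCs already held 2.15, 5.63 and 3.71 CPM and overlapped with KC-LCs at 2.09, 9.59 and 27.3 CPM (-1.74 ± 0.86, adjusted p = 0.155). Sorted PMs at 0.368, 0.327 and 1.74 CPM lay below PM-LCs at 3.46, 1.78 and 7.09 CPM without being called (-2.34 ± 0.88, adjusted p = 0.0873). These last tests turned on single libraries. KCs were called without KC-LC replicate 1 (-2.27, adjusted p = 0.0492), and PMs without sorted PM replicate 3 (-3.52, adjusted p = 0.0485) or PM-LC replicate 2 (-2.66, adjusted p = 0.0471). Against the mean of the other 3 populations, the Ms4a4a difference was larger in MG (-6.38 ± 1.53, adjusted p = 0.00531) and smaller in KCs (4.12 ± 1.26, adjusted p = 0.0319). The KC result was lost without sorted KC replicate 2 or KC-LC replicate 1 or 2, with adjusted p-values from 0.0676 to 0.0973. Sorted levels were called different in 4 of 6 pairs. PMs over AMs (4.16 ± 1.19, adjusted p = 0.0173) was lost without sorted AM replicate 1 or 2 or sorted PM replicate 3.

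Ms4a4c scattered widely between cultured libraries. Among sorted cells it was highest in KCs at 18.98, 21.9 and 22.3 CPM, while MG held 1.81, 1.76 and 1.67 CPM, PMs 0.301, 0.764 and 0.678 CPM and AMs 1.40, 0.230 and 0.0746 CPM. KCs differed from MG (MG minus KCs -3.64 ± 0.77, adjusted p = 0.00273), from PMs (KCs minus PMs 5.16 ± 0.83, adjusted p = 0.000671) and from AMs (KCs minus AMs 5.23 ± 0.84, adjusted p = 0.000441), and these were the 3 of 6 sorted pairs that were called. MG-LCs held 34.1, 1.37 and 0.657 CPM, with the high value in replicate 1. That library held the highest sum of fibroblast genes, and its 8 monocyte genes summed highest among MG-LCs (1958, 127 and 357 CPM). Of the monocyte genes only Fn1 and Gsr were called higher in MG-LCs than in MG. The same list had a mean sum of 18762 CPM in sorted PMs, so its sum is not a measure of monocytes. The part of other cells in the Ms4a4c level was not tested. The MG difference was -2.85 ± 1.46, adjusted p = 0.150 with that library and 0.73 without it. KC-LCs held 0.960, 5.56 and 12.3 CPM, all below sorted KCs (1.78 ± 0.76, adjusted p = 0.108), and were called without KC-LC replicate 3 (2.71, adjusted p = 0.0494). PM-LCs held 11.1, 4.27 and 1.44 CPM, all above sorted PMs, and were called (-3.24 ± 0.84, adjusted p = 0.0256). This call was lost without sorted PM replicates 1, 2 or 3 (adjusted p = 0.106, 0.0813 and 0.0946) or PM-LC replicate 1 (0.0895). AM-LCs at 0.392, 0.611 and 0.251 CPM overlapped with sorted AMs (0.44 ± 1.03, adjusted p = 0.748).

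Ms4a6b set MG and KCs apart from PMs and AMs in sorted cells. It held 102, 92.6 and 100.3 CPM in MG and 82.6, 103 and 60.6 CPM in KCs. PMs held 1.14, 0.709 and 1.76 CPM and AMs 0.807, 0.742 and 1.37 CPM. The 4 pairs across this divide were called, with log2 differences from 6.08 to 6.61, while MG overlapped with KCs and PMs with AMs. In culture the PM level reached that of MG and KCs, at 108, 92.7 and 21.8 CPM in PM-LCs (-5.93 ± 0.71, adjusted p = 0.00113). AM-LCs held 1.99, 1.68 and 0.646 CPM, overlapping with sorted AMs (-0.56 ± 0.56, adjusted p = 0.447). The PM difference exceeded the mean of the other 3 (-6.05 ± 0.89, adjusted p = 0.000128), and the MG difference lay on the other side of it (2.93 ± 0.799, adjusted p = 0.0130). MG-LCs held 119, 33.95 and 16.8 CPM and KC-LCs 18.6, 109 and 101 CPM, and both overlapped with their sorted cells. MG were not called with MG-LC replicate 1 (0.74 ± 0.68, adjusted p = 0.399) and were called higher ex vivo without it (1.901, adjusted p = 0.00489).

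Ms4a6c, whose promoter aligned with that of Ms4a6b, was detected in all 8 groups. Sorted KCs held 124, 139 and 125 CPM, PMs 47.4, 47.1 and 55.02 CPM, AMs 30.8, 21.7 and 16.01 CPM and MG 18.3, 18.5 and 16.8 CPM. KCs lay above all other sorted libraries, and MG minus KCs was -2.91 ± 0.22, adjusted p = 1.04e-06. Of the sorted pairs 3 of 6 were called, and MG minus PMs (-1.53 ± 0.21, adjusted p = 9.45e-05) fell inside the threshold of size without sorted MG replicate 3 (-1.48) or sorted PM replicate 3 (-1.45). MG-LCs held 92.2, 66.3 and 29.1 CPM, all above sorted MG (-1.86 ± 0.42, adjusted p = 0.0144). This call was lost without sorted MG replicate 1, 2 or 3 (adjusted p = 0.0700, 0.0684 and 0.0730) or MG-LC replicate 1 (log2 fold change -1.47). AM-LCs went the other way, at 8.49, 6.26 and 2.30 CPM, all below sorted AMs (2.02 ± 0.47, adjusted p = 0.0103). The differences in MG (-2.19 ± 0.58, adjusted p = 0.0110) and AMs (2.895 ± 0.59, adjusted p = 0.00197) both departed from the mean of the other 3 populations. KC-LCs at 48.1, 157 and 179.6 CPM and PM-LCs at 145, 87.9 and 42.9 CPM overlapped with their sorted cells (0.04 ± 0.44, adjusted p = 0.949 and -0.87 ± 0.39, adjusted p = 0.138). The part of the antisense gene in these values was not tested.

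Ms4a6d was the most even of the 7 members across populations. Sorted MG held 90.9, 96.4 and 93.4 CPM, KCs 91.97, 182 and 127 CPM, PMs 99.5, 115 and 108 CPM and AMs 241, 186 and 169.7 CPM, and their highest mean was 2.13 times the lowest. None of the 6 sorted pairs and none of the 6 culture pairs was called. Sorted AMs nevertheless passed the adjusted p alone against MG (MG minus AMs -1.13 ± 0.22, adjusted p = 0.00108) and PMs (PMs minus AMs -0.88 ± 0.22, adjusted p = 0.00798). No other sorted pair and no culture pair did. Libraries did not overlap in 3 of the 6 sorted pairs. MG-LCs held 279, 199.7 and 388 CPM, KC-LCs 217, 287 and 307 CPM, PM-LCs 368, 368 and 267 CPM and AM-LCs 538, 451 and 307 CPM. In each population all cultured libraries lay above all sorted ones. The log2 fold changes were -1.67 ± 0.27, adjusted p = 0.00551 for MG and -1.63 ± 0.18, adjusted p = 0.000859 for PMs, which were called, and -1.12 ± 0.21, adjusted p = 0.00476 for AMs and -0.99 ± 0.300, adjusted p = 0.0374 for KCs, which passed the adjusted p alone. Without MG-LC replicate 1 the MG value was -1.703, adjusted p = 0.00486, and without replicate 3 it fell inside the threshold of size (-1.41). Departures of single populations from the mean of the other 3 lay between -0.38 ± 0.31 and 0.44 ± 0.31, and none passed.

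Ms4a8a was called lower in culture in KCs and PMs. Sorted AMs held 311, 364 and 345 CPM, PMs 306, 267 and 330.0 CPM and KCs 58.5, 102 and 112 CPM, and sorted MG held 1 read in all. PMs overlapped with AMs, and the other 5 sorted pairs were called, with KCs minus PMs at -1.73 ± 0.24, adjusted p = 0.000230 and KCs minus AMs at -1.89 ± 0.24, adjusted p = 8.13e-05. KC-LCs held 0, 0.224 and 0 CPM, 9 reads in 1 library (10.23 ± 0.996, adjusted p = 0.000646). PM-LCs held 46.00, 43.3 and 17.9 CPM (3.08 ± 0.36, adjusted p = 0.00104). Both cultures lay wholly below their sorted cells. AM-LCs, at 42.9, 306 and 122 CPM, also lay below sorted AMs, but the gene was not called (1.11 ± 0.596, adjusted p = 0.161) unless AM-LC replicate 2 was left out (2.000, adjusted p = 0.0132). MG-LCs held no read, and against a floor of 3 reads over the group AM-LCs were at least 5716-fold and PM-LCs at least 1309-fold higher (adjusted p = 0.00371 and 0.0510, the latter not called). MG and MG-LCs were not tested for this gene.

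**Figure D2:**
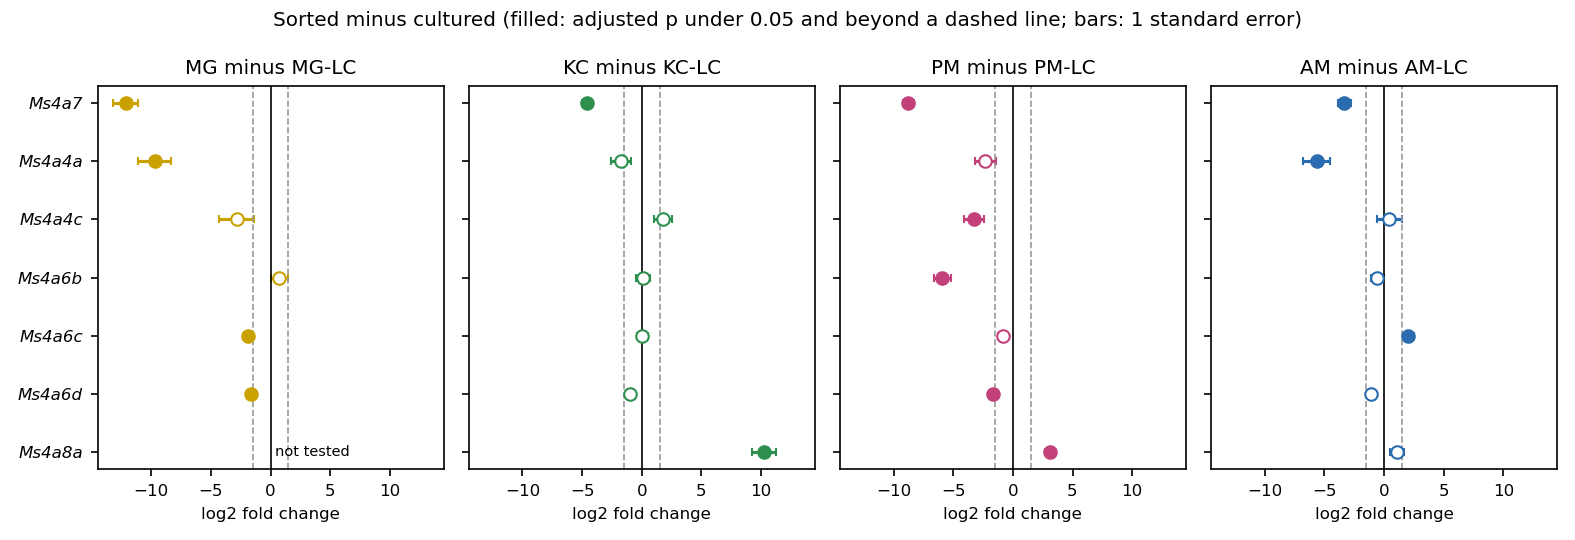
Log2 fold change of sorted minus cultured cells (horizontal axis) of the 7 Ms4a genes (vertical axis) in MG, KCs, PMs and AMs, with bars of 1 standard error, filled points for called genes and dashed lines at -1.5 and 1.5. Ms4a7 lies to the left in all panels, from -12.13 to -3.34, and Ms4a8a to the right in KCs (10.23) and PMs (3.08).

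By population, 4 of 6 tested members were called in MG, where 29.8% of all tested genes were called. In KCs 2 of 7 were called against 22.3% of all genes, in PMs 5 of 7 against 17.7%, and in AMs 3 of 7 against 21.5%. In the same order of populations, 4, 1, 4 and 2 members were higher in vitro, beside 16.4%, 7.62%, 10.2% and 12.9% of all genes. Higher ex vivo were 0, 1, 1 and 1, namely Ms4a8a in KCs and PMs and Ms4a6c in AMs, beside 13.5%, 14.7%, 7.57% and 8.62%. Libraries did not overlap for 4, 4, 6 and 5 members, as for 65.4%, 54.1%, 48.8% and 61.7% of all genes. The median log2 fold change of tested members was -2.36, 0.04, -2.34 and -0.56, where that of all genes was -0.03, 0.01, -0.01 and -0.04.

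Between sorted populations 25 of 42 member differences were called. By pair these were 5 of 7 for MG and KCs (23.9% of all genes), 5 for MG and PMs (25.7%), 3 for MG and AMs (33.3%), 4 for KCs and PMs (18.6%), 6 for KCs and AMs (24.6%) and 2 for PMs and AMs (21.5%). Between TRM-LC populations 11 of 42 were called, and each of the 11 involved AM-LCs. MG-LCs, KC-LCs and PM-LCs had 0 of 7 members called by edgeR in any of their pairs, against 0.0%, 0.0743% and 0.108% of all genes, and 0, 1 and 1 members had an unadjusted p below 0.05 (Ms4a8a in both PM-LC pairs). In Ms4a8a all PM-LC libraries lay above those of KC-LCs (KC-LCs minus PM-LCs -8.83 ± 1.30, adjusted p = 0.0529) and of MG-LCs, which held no read (adjusted p = 0.0510). These cultures were therefore not alike in that member. AM-LCs differed in 4 members from MG-LCs (5.15% of all genes), 4 from KC-LCs (5.37%) and 3 from PM-LCs (3.75%). AM-LCs held more Ms4a8a than MG-LCs, which held no read (adjusted p = 0.00371), and than KC-LCs (KC-LCs minus AM-LCs -10.99 ± 1.39, adjusted p = 0.00547). They held less Ms4a7 than MG-LCs (difference 2.305 ± 0.51, adjusted p = 0.0236), than KC-LCs (3.101 ± 0.52, adjusted p = 0.00939) and than PM-LCs (2.36 ± 0.51, adjusted p = 0.0280), less Ms4a6b (5.34 ± 1.04, adjusted p = 0.0146, 5.72 ± 1.053, adjusted p = 0.0127 and 5.66 ± 1.051, adjusted p = 0.0171) and less Ms4a6c (3.49 ± 0.71, adjusted p = 0.0165, 4.496 ± 0.74, adjusted p = 0.00891 and 3.99 ± 0.72, adjusted p = 0.0155). The number called was 3 without AM-LC replicate 2, 5 without AM-LC replicate 3, 14 without MG-LC replicate 1, and single calls were also lost without AM-LC replicate 1, MG-LC replicate 3 and PM-LC replicates 1 and 3. DESeq2 called 17. Departures of 1 population's culture difference from the mean of the other 3 were called for 10 of 28, where 19.8% (MG), 15.4% (KCs), 13.2% (PMs) and 17.1% (AMs) of all genes passed. For Ms4a8a the departures in MG and KCs had standard errors above 5 and were not read, since MG and MG-LCs held 1 read in all.

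Levels of different members were compared as CPM per kilobase of exon that no other gene overlaps. Ms4a6d led in all 3 libraries of sorted MG, at 53.9 ± 1.59 CPM per kb, and of AM-LCs, at 249 ± 67.3 CPM per kb. In MG-LCs its mean of 167 ± 54.5 and that of Ms4a7 at 153 ± 25.3 CPM per kb lay within their spread, and Ms4a7 was higher in replicate 2 (144 against 115). In PM-LCs the means of Ms4a6d (193 ± 33.5) and Ms4a7 (163 ± 80.2 CPM per kb) lay within their spread too, and Ms4a7 was higher in replicate 1 (253 against 212). Ms4a8a led in sorted PMs at 168 ± 17.6 and in sorted AMs at 189 ± 15.1 CPM per kb. Ms4a7 led in KC-LCs at 268 ± 95.4 CPM per kb. Sorted KCs were led by Ms4a6c at 135 ± 8.68 CPM per kb, but by Ms4a6d when the length of the longest transcript was used (94.2 against 70.3 CPM per kb for Ms4a6c). The member with the highest mean was kept in 7 of 8 groups under that length.

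**Figure D3:**
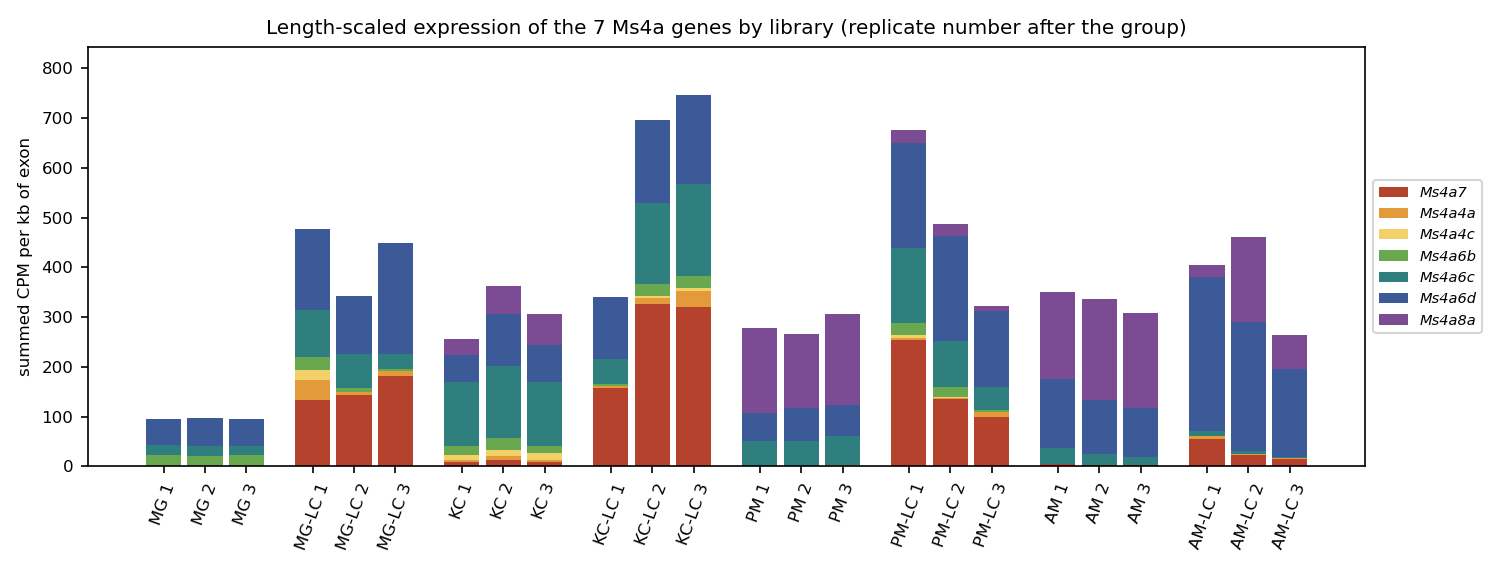
Stacked CPM per kilobase of exon of the 7 Ms4a genes in each of the 24 libraries, with 1 colour per gene. Ms4a8a and Ms4a6d made up most of the sorted PM and AM bars, and Ms4a7 appeared as a large block in MG-LCs, KC-LCs and PM-LCs.

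Members followed several patterns across libraries. Correlations of log2 CPM are given as descriptions over 24 libraries, which share group and culture state. Ms4a7 and Ms4a4a had r = 0.81 (0.58 over the 12 sorted and 0.64 over the 12 cultured libraries). Ms4a6b and Ms4a6c had r = 0.21 over sorted and 0.98 over cultured libraries, where AM-LCs were low in both. Ms4a6b and Ms4a8a had r = -0.71 over sorted libraries. Among the other 17327 genes of the filtered table, those most like Ms4a7 by Pearson's r were Stap1 (0.96), Akr1b8 (0.95) and Ndrg1 (0.94). The genes closest to Ms4a4a were Igf2r (0.89), Sestd1 (0.89) and Aoah (0.87), and to Ms4a4c Tap1 (0.89), Tada2a (0.88) and Ifi208 (0.85). For Ms4a6b they were Fcrl1 (0.92), Gatm (0.91) and Fcgr1 (0.88), and for Ms4a6c BE692007 (0.88), Lst1 (0.84) and Tada2a (0.84), the first of which is the antisense gene that shares its exons. For Ms4a6d they were Rnf149 (0.95), 4930430E12Rik (0.93) and Gla (0.93), and for Ms4a8a Igsf8 (0.93), Amigo2 (0.92) and Mcemp1 (0.92). Stap1, a signalling adaptor, averaged 0.204, 13.8, 3.62 and 11.8 CPM in sorted MG, KCs, PMs and AMs and 86.5, 161, 222 and 55.9 CPM in their cultures. Likeness over all libraries did not always hold within a state. Over the 12 cultured libraries Ms4a7 had r = 0.61 with Stap1, 0.64 with Akr1b8 and -0.04 with Ndrg1, and Ms4a4a had r = 0.36 with Igf2r. Over the 21 pairs named, r ran from 0.59 to 0.97 in sorted and from -0.04 to 0.97 in cultured libraries.

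Of the 12 other Ms4a genes, 8 did not average 1 CPM in any group, and 3 of these had no read at all. Ms4a14, which lies 6.58 kb from Ms4a7, had no read in sorted MG, against 10.03, 21.9 and 22.3 CPM in MG-LCs. It had no read in sorted PMs either, against 18.4, 1.69 and 11.1 CPM in PM-LCs. Over a floor of 3 reads per group this was at least 743-fold higher in MG-LCs and at least 357-fold higher in PM-LCs, and both were called (adjusted p = 0.00179 and 0.00636). KCs held 3.86, 3.06 and 1.40 CPM and KC-LCs 4.42, 17.2 and 22.04 CPM (-2.36 ± 0.69, adjusted p = 0.0328). Its level correlated with that of Ms4a7 at r = 0.88 over all libraries, 0.75 over the sorted and 0.85 over the cultured ones. Ms4a1, the CD20 gene, held 12.1, 5.03 and 10.4 CPM in sorted KCs, the group with the highest sum of B cell genes, and no read in KC-LCs. Sorted PMs held 1.14, 6.44 and 3.44 CPM and PM-LCs 20.6, 0.491 and 0.101 CPM. In PM-LCs replicate 1 lay above all sorted PMs and the other libraries lay below them. Ms4a4b held 28.9, 6.90 and 3.08 CPM in sorted KCs, where 8 T cell genes summed to 145, 26.2 and 17.7 CPM, and 0.120, 0.797 and 0.530 CPM in KC-LCs (4.78 ± 1.09, adjusted p = 0.0130). It was also called higher ex vivo in PMs (3.37 ± 1.047, adjusted p = 0.0485) and, from 1 read against 49, higher in vitro in MG (-5.32 ± 0.97, adjusted p = 0.00744). The T cell genes summed higher in sorted AMs (532, 407 and 444 CPM), where Ms4a4b held 1.88, 0.435 and 1.09 CPM. Only 3 of these 8 genes averaged at least 1 CPM in sorted AMs, however, against 7 in sorted KCs. The sums are therefore not comparable as measures of T cells. The part of B and T cells in these values was not tested. Ms4a4d reached 11.7 CPM in MG-LC replicate 1 and at most 0.789 CPM in any other library.

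**Figure D4:**
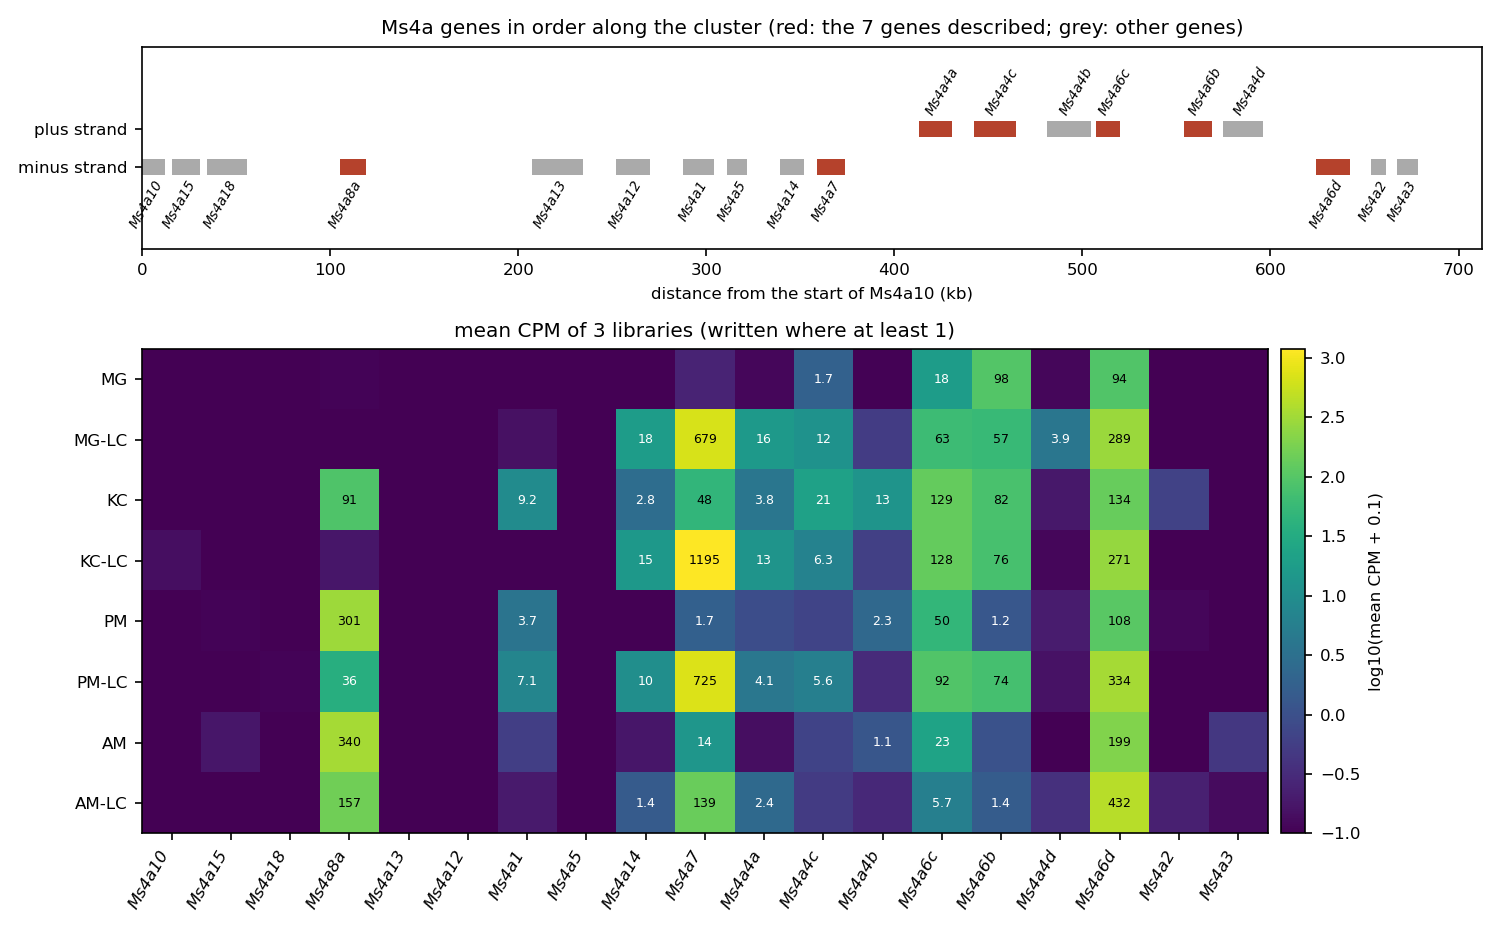
Above, the 19 Ms4a genes by position in kb along the cluster, with the 7 described genes in red. Below, mean CPM per group as colour (log10 of CPM plus 0.1), with the number where it was at least 1. The adjacent Ms4a14 and Ms4a7 were both higher in MG-LCs, KC-LCs and PM-LCs than in the sorted cells.

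Of 8 genes for reported partners of Ms4a proteins and their signalling, 1, 1, 2 and 2 were called higher in vitro and 1, 0, 0 and 1 higher ex vivo in MG, KCs, PMs and AMs, where the shares of all genes were 16.4%, 7.62%, 10.2% and 12.9% higher in vitro. Trem2, a lipid receptor of macrophages, went from 39.8 to 1742 CPM in KCs, 69.4 to 2015 CPM in PMs and 43.2 to 799 CPM in AMs, and from 1162 to 1179.6 CPM in MG without being called. Clec7a, which encodes Dectin-1, was called in MG (8.72 to 224 CPM), PMs (121 to 2191 CPM) and AMs (692 to 1966 CPM). In AMs its log2 fold change lay at the threshold of size (-1.502 ± 0.304, adjusted p = 0.00598). KCs had a larger but more scattered change that was not called (119 to 428 CPM, -1.83 ± 0.71, adjusted p = 0.0820). Card9, an adaptor downstream of Dectin-1, was called lower in culture in MG (39.9 to 6.72 CPM) and AMs (43.01 to 15.03 CPM). Tyrobp, Fcer1g, Syk, Plcg2 and Grn were not called in any population.

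Genes listed for other cells moved beside the members, but several lists were not particular to those cells. Among the groups, sorted PMs held the highest mean sums of the border macrophage genes (4592 CPM) and of the monocyte genes (18762 CPM). In PMs and in AMs the only hepatocyte gene called was Trf. Counts of called genes are therefore not measures of such cells. Of 8 genes of border and perivascular macrophages, 6 of 7 tested were called higher in MG-LCs than in MG (Mrc1, Cd163, Pf4, Cbr2, F13a1 and Clec12a). The sum of all 8 ran from 661 to 734 CPM in MG, where Cd163 had no read, and from 559 to 1899 CPM in MG-LCs. Only 2 of the 8 averaged at least 1 CPM in MG, however, against 7 in MG-LCs, so the sums are not comparable as measures of these cells. All 8 MG markers were called lower in MG-LCs, with sums of 33454, 35143 and 31537 CPM in MG and 518, 1519.9 and 3644 CPM in MG-LCs. The part of border and perivascular macrophages in the rise of Ms4a7 and Ms4a4a was not tested. Lower markers in culture were not particular to MG. Called lower in their own cultures were 7 of 8 KC, 8 of 8 PM and 6 of 8 AM markers, and 1 AM marker was called higher. In KCs, PMs and AMs the border macrophage genes were called higher in vitro for 1, 1 and 1 and higher ex vivo for 3, 5 and 1. Called higher in vitro in MG, KCs, PMs and AMs were 2, 0, 0 and 1 of 8 monocyte genes, 4, 0, 7 and 5 of 8 fibroblast and mesothelium genes, 1, 0, 1 and 3 of 8 mast cell and basophil genes and 1, 0, 0 and 2 of 8 neutrophil genes. Called higher ex vivo were 0, 5, 3 and 1 monocyte, 2, 8, 1 and 1 B cell, 0, 6, 0 and 1 T cell and 3, 7, 1 and 1 hepatocyte genes, and 0, 0, 5 and 0 mast cell and basophil and 0, 1, 0 and 0 neutrophil genes. The 5 mast cell genes in PMs were Cpa3, Hdc, Tpsb2, Cma1 and Mcpt4, and the list summed to 102, 83.97 and 77.4 CPM in sorted PMs and 2.26, 5.25 and 1.47 CPM in PM-LCs. All these counts stand beside the shares of all genes given above for each direction and population. The list counts for MG were not repeated without MG-LC replicate 1.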

How the data were processed

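RNA of 24 libraries, 3 for each of 8 groups assigned by the sample titles, was prepared with SMARTer and Nextera XT kits, which do not mark strand, and sequenced as single reads. The authors trimmed and aligned the reads with Trimmomatic and STAR to mm10 and deposited raw counts per gene without normalization or filtering. The submitters' processing notes name Trimmomatic 0.36, STAR 2.5.2b and hg19, whereas the gene identifiers in the table are those of mouse. The authors tested with limma-voom, which is an alternative here.

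Counts were analysed in R 4.3.3 with edgeR 4.0.16 (TMM, filterByExpr with a minimum count of 10, two-sided quasi-likelihood test, Benjamini-Hochberg adjustment over all tested genes). Genes were called at an adjusted p below 0.05 and an absolute log2 fold change over 1.5, and differences between populations in the culture effect by the adjusted p alone. Levels are TMM-scaled CPM over all 24 libraries. Likeness used log2 CPM with a prior count of 2. Symbols, coordinates and lengths came from GENCODE for GRCm38, in which 45143 of 45706 identifiers had a symbol, and promoters from RefSeq. A group without reads was given a floor of 3 reads. On simulated counts with 200 genes changed by a log2 value of 3, the test found 132 (MG, 14416 genes), 131 (KC, 13629), 138 (PM, 13581) and 169 (AM, 13196), with 6, 6, 9 and 3 false calls. Replicates of a group differed by more than sampling noise (chi-squared per degree of freedom 12.9 to 845). This spread was unequal between groups, at 12.9 to 20.6 in sorted MG and 272 to 845 in MG-LCs. The simulation gave each gene the same spread in both groups, so its found and false calls do not cover such unequal spread.

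The members, gene lists and tests were chosen with earlier results of these data known. Named were all members, all other Ms4a genes with a group mean of 1 CPM, the Tmem176 genes, the fixed partner and cell lists, and the genes most like each member. Alternatives were limma-voom (limma 3.58.1), DESeq2 1.42.0, size factors by RLE, all genes without a filter, 1 CPM in 3 libraries, a fold change of 1.5, the adjusted p alone, 1 model of all 24 libraries, a replicate block, another length, and leaving out each library.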

Additional observations from a re-analysis of the deposited data

Results flagged for a closer look

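The difference between sorted and cultured cells itself differed between populations for 4 members, in a test of each population against the mean of the other 3 (log2, ex vivo minus in vitro). For Ms4a7 the values were -6.498 ± 0.76 in MG, -2.08 ± 0.65 in PMs, 5.15 ± 0.67 in AMs and 3.43 ± 0.64 in KCs, of which the PM value was no longer called with limma-voom (adjusted p = 0.319). For Ms4a4a they were -6.38 ± 1.53 in MG and 4.12 ± 1.26 in KCs, for Ms4a6b 2.93 ± 0.799 in MG and -6.05 ± 0.89 in PMs, and for Ms4a6c -2.19 ± 0.58 in MG and 2.895 ± 0.59 in AMs. Without MG-LC replicate 1 the MG values were -6.59, adjusted p = 5.73e-06 for Ms4a7, -5.14, adjusted p = 0.0219 for Ms4a4a, 4.08, adjusted p = 0.00142 for Ms4a6b and -1.796, adjusted p = 0.0466 for Ms4a6c. The tests of 1 gene share all 24 libraries and are not independent.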

How the results depend on the processing

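With 1 library left out in turn, members called numbered 3 to 4 in MG, 4 to 6 in PMs, 3 to 4 in AMs and 2 to 3 in KCs. Called differences numbered 23 to 27 between sorted and 3 to 14 between TRM-LC populations, and 8 to 11 culture differences departed from the mean of the others. Between TRM-LC populations DESeq2 called 17 against 11. Some members that had not been called changed direction when 1 library was left out: Ms4a4c in MG (-3.404 to 0.73), Ms4a6b in KCs (-0.36 to 0.45), Ms4a6c in KCs (-0.38 to 0.35) and Ms4a4c in AMs (-1.42 to 0.97, and -0.49 with limma-voom). The cause was not tested. Ms4a4c in KCs was called with limma-voom (2.44) and DESeq2 (1.83), Ms4a4a in PMs with DESeq2 (-2.31), and Ms4a4c in PMs was lost with limma-voom (-2.78) and with all 24 libraries in 1 model (-3.26). With limma-voom Ms4a6b no longer differed between AM-LCs and the other cultures at the adjusted p.

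Replicate numbers were not taken to pair the samples. Same-numbered deviations correlated from -0.104 to 0.06 between sorted and cultured cells and from -0.38 to 0.29 between TRM-LC populations. The lowest was between MG-LCs and PM-LCs of replicate 1. In replicate 3, MG-LCs correlated with KC-LCs at 0.21 and with PM-LCs at 0.29, and KC-LCs with PM-LCs at 0.23. Differently numbered libraries were not compared, so these values cannot show whether samples were paired. With the replicate block Ms4a4a in PMs (-2.55) and Ms4a8a in AMs (1.52) were called, Ms4a4c in PMs (-2.83) and the departure of Ms4a7 in PMs (-1.93) were lost, and Ms4a4c in AMs changed sign (-0.37). At these depths levels under 0.115 CPM could not be told from 0.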

Other observations

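Tmem176a and Tmem176b encode relatives of the Ms4a proteins outside the cluster and had another course. Tmem176b held 504, 444 and 578 CPM in sorted KCs against 34.7, 47.3 and 75.3 CPM in KC-LCs (3.31 ± 0.35, adjusted p = 0.000882). It held 825, 804 and 867 CPM in sorted PMs against 10.2, 108 and 33.5 CPM in PM-LCs (4.04 ± 0.79, adjusted p = 0.00917). In AMs the order was the reverse, from 0.956, 1.28 and 0.448 CPM to 4.96, 5.88 and 100.2 CPM (-5.44 ± 1.38, adjusted p = 0.0150), with the highest culture level in AM-LC replicate 3. MG were not called (0.97 ± 0.65, adjusted p = 0.257). Tmem176a was called in the same populations with the same signs (3.45 ± 0.49, adjusted p = 0.00246 in KCs, 4.45 ± 0.88, adjusted p = 0.00950 in PMs and -5.495 ± 1.61, adjusted p = 0.0259 in AMs).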
